A study of Homo sapiens with 6 samples.

Results

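Cytosolic acetyl-CoA and fatty acid synthesis was followed through the transcripts of 10 genes in cervical cancer cells with and without P4HA3 overexpression. The genes were chosen by name, as ACLY, ACSS2, SLC25A1, ME1, ACACA, ACACB, FASN, ACSL3, MLXIPL and THRSP, and each of them had 1 row among the 60664 gene rows of the count table. The cells were SiHa PR, the parental form of an established human cervical squamous carcinoma line, in 3 control libraries and 3 libraries with P4HA3 overexpression. P4HA3 encodes an alpha subunit of collagen prolyl 4-hydroxylase, and the study asked how a raised level of it acts on ferroptosis and on lymph node metastasis. The sample names give the controls only as SiHa PR. The study labels its controls Vector in other assays, but for this sequencing it writes of control cells without naming a vector. The study's methods describe P4HA3 cDNA in a pCDH lentiviral vector and also a doxycycline-inducible line. Which of these gave the sequenced cells, and whether they were a pool or 1 clone, is not given in the sources used here. No drug treatment, dose or time is named for any of the 6 libraries.

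Fatty acids are built in the cytosol from acetyl-CoA, which cannot leave the mitochondrion as such. Citrate is carried out by SLC25A1 and cleaved by ACLY to acetyl-CoA and oxaloacetate, while ACSS2 makes acetyl-CoA from acetate. The acetyl-CoA carboxylases ACACA and ACACB turn it into malonyl-CoA, the multienzyme FASN lengthens the chain with NADPH that ME1 helps to supply, and ACSL3 joins the finished or imported fatty acid to coenzyme A. SREBP factors, MLXIPL (ChREBP) and THRSP (Spot 14) are known as regulators of lipogenesis in liver and adipose tissue, and many carcinomas express the pathway at high levels.

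The transcripts of citrate export, acetyl-CoA formation from citrate and from acetate, carboxylation by ACACA and chain synthesis by FASN were lower in P4HA3-overexpressing cells. FASN fell by 37.2%, SLC25A1 fell by 30.9%, ACSS2 fell by 28.5%, ACACA fell by 15.2% and ACLY fell by 12.4%. Of the 9 genes with enough counts to test, 5 were lower, 0 were higher and 4 did not pass the threshold of 0.05 on the adjusted p from the quasi-likelihood test of edgeR (Benjamini-Hochberg across all 15130 tested genes). Levels are given as CPM, which are counts-per-million after TMM normalization. Among all genes tested, 11.4% were called lower, 9.36% higher and 20.8% in either direction. When control replicate 1 or 2 or overexpression replicate 3 was left out, 3 of the genes were lower, FASN, SLC25A1 and ACSS2, and when overexpression replicate 1 was left out ME1 was called higher. The median log2 fold change of the 9 genes was -0.24, beside 0.00555 for all genes tested. The libraries of the 2 groups did not overlap for 6 of the 9 genes, 5 of them lower and ME1 higher, beside 40.1% of all genes tested with no overlap and 20.4% with no overlap and lower. The 10th gene, THRSP, was at or near 0 in every library.

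**Figure D1:**
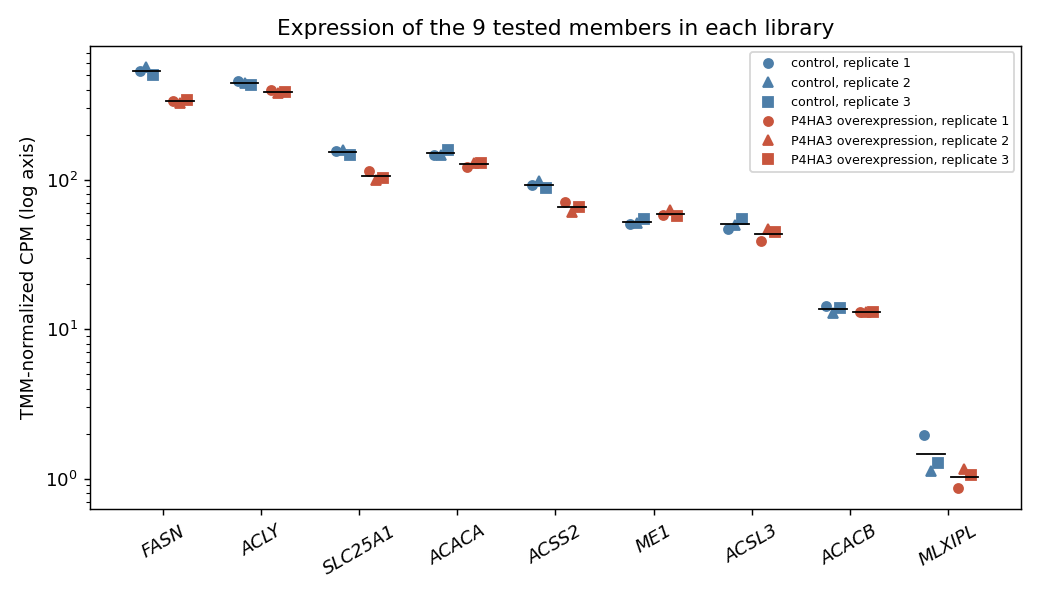
Level in CPM (log axis) of the 9 tested genes in each of the 6 libraries, with control in blue, P4HA3 overexpression in red, 1 marker shape per replicate number and a black line at the mean of 3 libraries. FASN lies between 498 and 566 in control and between 327 and 340 with overexpression, ME1 is the only gene whose overexpression libraries all lie above control, and the MLXIPL libraries of the groups overlap near 1 CPM.

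The libraries were of similar depth, with total counts from 21773488 to 24939948, and P4HA3 itself had 86, 62 and 93 counts in control and 45042, 44775 and 49097 with overexpression. SLC7A11, the cystine transporter subunit that the study follows downstream of ACLY, rose by 1.03 on the log2 scale (SE 0.204, adjusted p = 0.00958), a call that was lost without control replicate 2 (adjusted p = 0.0735). After removal of trends with GC content and length the rise was 0.69 (adjusted p = 0.00103). Of 10 epithelial and squamous markers, 7 reached a mean of 1 CPM over the 6 libraries, with a summed level of 7400 to 8520 CPM in control and 6260 to 7300 with overexpression, while KRT5 stayed at 3 to 4 counts per library. Of these markers 4 were called lower, at log2 fold changes of -0.77 for CDH1, -1.26 for KRT6A, -0.32 for KRT17 and -0.40 for KRT18 (adjusted p = 0.00114, 0.00232, 0.031 and 0.0108). Adipocyte and hepatocyte markers, from the tissues where lipogenesis is best known, reached a mean of 1 CPM for 0 of 8 genes, and the highest of them, PLIN1, ran from 0.616 to 1.23 CPM. The 10 smooth muscle markers, checked because the deposited growth protocol describes uterine muscle instead of these cells, summed to at most 115 CPM in control and 130 CPM with overexpression, and 3 of them reached a mean of 1 CPM. Most of that sum was SMTN, but TAGLN rose by 0.96 (adjusted p = 0.000436), and ACTG2 stood apart in single libraries, at 0, 0.0469 and 1.23 CPM in control and 1.72, 0.0445 and 1.73 CPM with overexpression. Leukocyte markers summed to 93.5 to 111 and 35.8 to 52, nearly all of it CD14, which fell by 1.15 (adjusted p = 0.000757), with CD3E at 0, and 7 of 7 fibroblast markers reached a mean of 1 CPM at a sum of 188 to 198 and 148 to 189. Endothelial markers summed to 2.78 to 3.75 and 1.42 to 1.77. The part of these markers in the values below was not tested. Nothing in the labels says that the 3 libraries of a group came from separate cultures, so p-values measure the spread between these libraries, which may be technical. In bulk RNA, fewer cells of a kind and less RNA per cell cannot be told apart.

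The log2 fold changes of all genes followed the GC content of their transcripts (Spearman's rho = -0.58 across 15107 genes, a description, since genes are not independent replicates). Replicates of 1 group also differed along GC content, with rho from -0.52 in control replicate 3 to 0.45 in P4HA3 overexpression replicate 1. In bins of GC content, the median log2 fold change was 0.24 at 35 to 40%, 0.0441 at 45 to 50%, -0.0577 at 50 to 55%, -0.21 at 60 to 65% and -0.27 at 65 to 70%, and 37.3% of the genes in the 65 to 70% bin were called lower. The members spread along this axis, from ACSL3 (37.4%) and ME1 (39.3%) through ACACA (48.9%), ACLY (52.0%), ACSS2 (53.8%) and ACACB (54.7%) to MLXIPL (63.3%), SLC25A1 (64.5%) and FASN (65.3%). Each tested member is therefore also given after removal of every library's smooth trend on GC content and transcript length, which takes out any difference between the groups that follows these properties, of technical origin or not. With that correction 6 members were lower and 0 higher, at a median of -0.28 beside 0.0186 for all genes, and the split of calls over all genes turned from 1416 higher and 1731 lower to 1603 higher and 1202 lower.

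**Figure D2:**
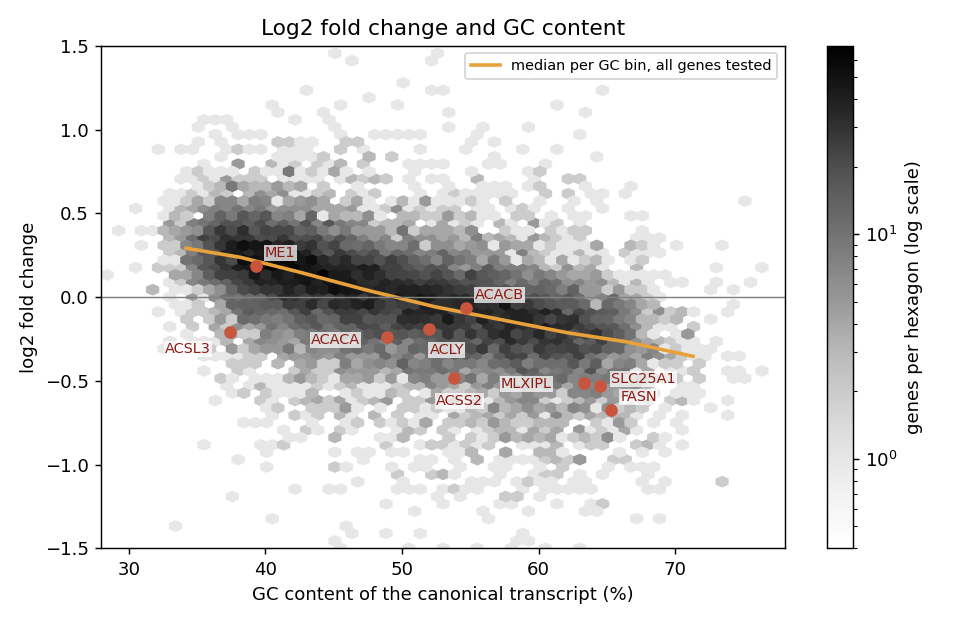
Log2 fold change of P4HA3 overexpression against control (y axis) by the GC content of the canonical transcript in percent (x axis), with the number of genes per hexagon in grey on a log scale, the median per GC bin in orange and the 9 tested members in red. FASN, SLC25A1, ACSS2, ACLY, ACACA, MLXIPL and ACSL3 lie below the orange line, while ME1 and ACACB lie near it. The y axis ends at 1.5 in either direction, and 35 genes lie outside the limits of the y axis or of the x axis.

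Promoter sequence was read for 9 of the 10 members from RefSeq windows of 250 bases before to 50 bases after an annotated start (GRCh38.p14), 14 windows in all, 2 of which overlap at ACLY. The letters CCAAT, the core bound by NF-Y, were found on either strand in 7 of 9 members and 9 of 14 windows, beside 34.6% of all 34943 windows. No window was at hand for FASN. The members without a match were ME1 and MLXIPL, while ACACB and ACSL3, which were not called, and the untested THRSP held matches, as did ACLY, ACSS2, SLC25A1 and ACACA. The letters GGGCGG, a core of Sp1 sites, were found at 40 positions in 8 of 9 members and 11 of 14 windows, beside 44.9% of all windows, and some of these positions overlap each other. The sterol regulatory element TCACNCCAC was found in 0 of 9 members (1.12% of all windows), the E-box CACGTG in 0 (7.23%), and the carbohydrate response element and the LXR direct repeat in 0 (0.00572% and 0.02%). Both long motifs were searched in an exact form only, and no match says only that these letters are not in these windows. The following stretches show the CCAAT letters, or their complement ATTGG, in capitals for the supply enzymes and the carboxylase that were called lower. Sequences run 5′ to 3′ on the strand of the gene, and lie outside its annotated exons.
ACLY, chr17:41919063-41919107, minus strand: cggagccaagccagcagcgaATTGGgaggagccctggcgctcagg
ACLY, chr17:41919023-41919065, minus strand: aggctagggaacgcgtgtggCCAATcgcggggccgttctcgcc
ACSS2, chr20:34874846-34874890, plus strand: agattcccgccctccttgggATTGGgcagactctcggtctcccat
SLC25A1, chr22:19178897-19178941, minus strand: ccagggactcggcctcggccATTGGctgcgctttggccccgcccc
ACACA, chr17:37359298-37359342, minus strand: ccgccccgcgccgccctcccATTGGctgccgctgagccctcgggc

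Relative to the start of the first ACLY window, the ACLY matches begin at -65 and -23. The ACSS2 match begins at -123, the SLC25A1 match at -185 and the ACACA match shown at -226 of the second of its 3 windows. The third ACACA window held 2 more matches, at -155 and -136, which are not shown. No binding of any factor was measured in these files.

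SLC25A1, the mitochondrial citrate carrier (chr22:19175581-19178739, minus strand, 9 exons in its canonical transcript), was read at 155, 158 and 146 CPM in control and at 114, 99.4 and 103 CPM with overexpression. Each overexpression library lay below each control library. Its mean went from 152.6 ± 6.32 to 105 ± 7.35 CPM (SD, n = 3), and the log2 fold change was -0.53 (SE 0.0645, edgeR's quasi-likelihood test, adjusted p = 0.00117). The fall was called without any 1 library, between -0.59 and -0.49. Its transcript is GC-rich, and with the GC and length correction the log2 fold change was -0.25 (SE 0.038, adjusted p = 0.00122), a value less than 1/2 of the uncorrected one. Corrected levels were 137, 137 and 141 CPM in control and 116, 118 and 114 CPM with overexpression, again without overlap. The rows of its processed copies, SLC25A1P1 to SLC25A1P5, held 0 to 1 counts per library. Whether reads from the copies were counted for SLC25A1 was not tested.

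ACLY, ATP citrate lyase, is the enzyme the study centres on, at the protein level. By RT-qPCR the study reports no change of ACLY mRNA when P4HA3 was raised or lowered, and by western blot more ACLY protein with overexpression. In these libraries the ACLY transcript (chr17:41866917-41930542, minus strand, 29 exons) was read at 453, 444 and 427 CPM in control and at 398, 378 and 384 CPM with overexpression, so that the groups did not overlap. The means were 441 ± 12.8 and 386 ± 10.3 CPM (SD, n = 3), and the log2 fold change was -0.19 (SE 0.0542, adjusted p = 0.0336). This was the smallest of the 5 falls, and its call held in 2 of 6 fits without 1 library. The adjusted p became 0.156 or 0.11 when control replicate 1 or 2 was left out, and 0.0799 or 0.119 when overexpression replicate 2 or 3 was left out, while the log2 fold change stayed between -0.21 and -0.17. With the GC and length correction the value was -0.15 (SE 0.0419, adjusted p = 0.0325), and it was called in 1 of 6 corrected fits that left out 1 library. No fit placed ACLY mRNA higher with overexpression. A non-coding gene on the opposite strand shares 156 exon bases with ACLY outside its coding sequence and held 4 to 15 counts per library.

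ACSS2, the nuclear and cytosolic acetyl-CoA synthetase that uses acetate (chr20:34872146-34927962, plus strand, 18 exons), was read at 91.6, 97.2 and 87.7 CPM in control. With overexpression it was read at 71, 61.1 and 65.5 CPM, below every control library. The means were 92.2 ± 4.74 and 65.85 ± 4.97 CPM (SD, n = 3), which gave a log2 fold change of -0.48 (SE 0.07, adjusted p = 0.00254). After the GC and length correction it was -0.39 (SE 0.0492, adjusted p = 0.000452), and it was called in 17 of 17 alternative fits.

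ME1, cytosolic malic enzyme (chr6:83210402-83431051, minus strand, 14 exons), makes NADPH from malate that can come from the oxaloacetate ACLY releases. It was read at 50.1, 51.6 and 54.7 CPM in control and at 58.3, 62.5 and 57 CPM with overexpression. Its overexpression libraries all lay above control, opposite in direction to the 5 genes called lower, but the gene was not called. The log2 fold change was 0.18 (SE 0.0648, adjusted p = 0.0664), with a 95% interval of 0.0405 to 0.33 before adjustment. It was called only without P4HA3 overexpression replicate 1 (adjusted p = 0.0485). Its transcript is GC-poor, and with the GC and length correction the difference was 0.00763 (adjusted p = 0.929), with corrected levels of 54.6, 56.6 and 55.1 CPM in control and 58.9, 54.2 and 54.1 CPM with overexpression, which overlap.

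ACACA, acetyl-CoA carboxylase alpha, the cytosolic form that feeds synthesis (chr17:37084992-37406836, minus strand, 56 exons), was read at 147, 146 and 157 CPM in control and at 122, 130 and 129 CPM with overexpression. The groups did not overlap. Means of 149.9 ± 6.33 and 127 ± 4.33 CPM (SD, n = 3) gave a log2 fold change of -0.24 (SE 0.0563, adjusted p = 0.01815). Leaving out control replicate 1 or 2 or overexpression replicate 3 ended the call (adjusted p = 0.0714, 0.0625 and 0.0712), and over the 6 fits without 1 library the values lay between -0.26 and -0.20. With the GC and length correction it was -0.30 (SE 0.044, adjusted p = 0.00104), and the corrected fits without 1 library called it in 6 of 6 cases.

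ACACB, the mitochondria-associated carboxylase whose malonyl-CoA restrains fatty acid oxidation (chr12:109116587-109268226, plus strand, 53 exons), was far lower. It was read at 14.2, 12.9 and 13.8 CPM in control and at 13, 13.1 and 13 CPM with overexpression. These values overlap, and the log2 fold change was -0.07 (SE 0.0842, adjusted p = 0.58), with a 95% interval of -0.25 to 0.12 that leaves room for a fall of the size seen in ACACA. After the correction it was -0.0319 (adjusted p = 0.818).

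FASN, fatty acid synthase, which carries all steps of chain synthesis on 1 polypeptide (chr17:82078338-82098294, minus strand, 43 exons), had the greatest difference among the 10 genes in CPM and the greatest called log2 fold change. It was read at 536, 566 and 498 CPM in control and at 336, 327 and 340 CPM with overexpression. The 3 overexpression libraries lay close together and well below the lowest control library. The means were 533 ± 34.1 and 334.6 ± 7.01 CPM (SD, n = 3), with a log2 fold change of -0.67 (SE 0.0616, adjusted p = 0.000436). The GC and length correction gave -0.47 (SE 0.0427, adjusted p = 6.25e-05), with 509, 502 and 480 CPM against 368, 345 and 363 CPM. It was called in 17 of 17 alternative fits. All 10 genes together summed to 1494, 1525 and 1440 CPM in control and to 1152, 1118 and 1138 CPM with overexpression. FASN made up 35.9%, 37.1% and 34.6% of that sum in control and 29.2%, 29.2% and 29.9% with overexpression, while ACLY made up 30.3%, 29.1% and 29.7% and then 34.5%, 33.8% and 33.7%. FASN was thus the most counted gene of the 10 in control, and ACLY was with overexpression.

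ACSL3, a long-chain acyl-CoA synthetase of the endoplasmic reticulum and lipid droplets (chr2:222860942-222944639, plus strand, 17 exons), was read at 46.4, 49.3 and 54.6 CPM in control and at 39, 46.7 and 44.6 CPM with overexpression. The groups overlap by the lowest control and the highest overexpression library. The log2 fold change of -0.21 (SE 0.0861) was not called (adjusted p = 0.107). After the correction it was -0.44 (SE 0.0522, adjusted p = 0.000285), on corrected levels of 53.1, 54.9 and 54.8 CPM against 40.6, 37.4 and 41.8 CPM, which do not overlap. Corrected fits without 1 library called it in 6 of 6 cases, between -0.48 and -0.40, whereas 0 of 6 such fits called it without the correction. An antisense gene that shares 403 exon bases with ACSL3, ACSL3-AS1, held 0 counts.

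**Figure D3:**
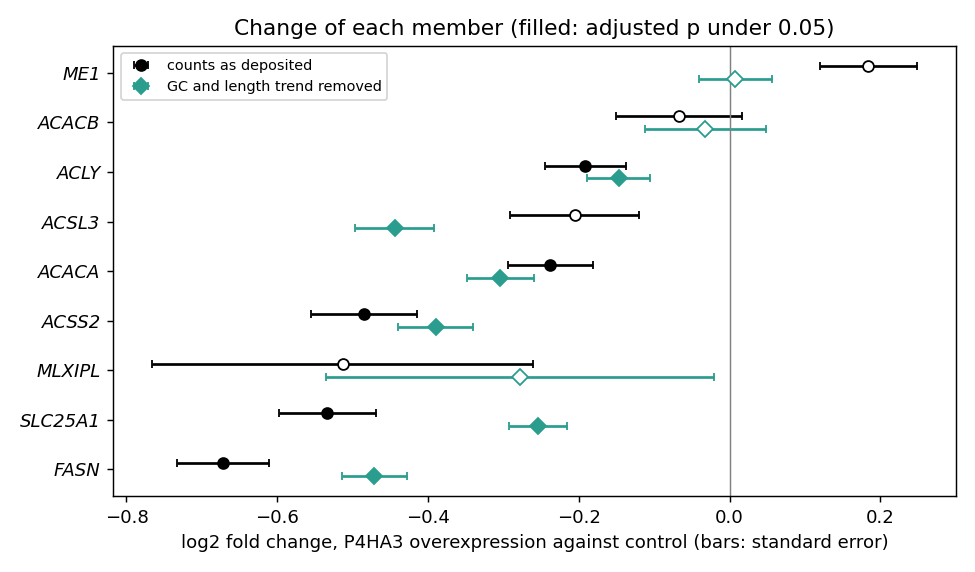
Log2 fold change of P4HA3 overexpression against control for the 9 tested members (x axis), with the standard error as bars, from the counts as deposited (black circles) and after removal of each library's GC and length trend (green diamonds), filled where the adjusted p is under 0.05. FASN and SLC25A1 move towards 0 with the correction and stay called, ACSL3 moves from -0.21 to -0.44 and becomes called, and ME1 moves from 0.18 to 0.00763.

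The regulators of lipogenesis among the 10 genes were hardly expressed. MLXIPL, the glucose-responsive factor ChREBP (chr7:73593194-73624543, minus strand, 17 exons), held 48, 24 and 31 counts in control and 20, 26 and 27 counts with overexpression, close to 1 CPM. Control replicate 1 stood above the other libraries, which overlap. Its log2 fold change was -0.51 (SE 0.253, adjusted p = 0.16), and the 95% interval ran from -1.08 to 0.05, so that at this depth it holds both the size of the FASN fall and no change. The value was -0.23 (adjusted p = 0.572) without control replicate 1 and -0.28 (adjusted p = 0.49) with the GC and length correction. THRSP (chr11:78063861-78068351, plus strand, 2 exons) held 0 counts in 5 libraries and 1 count in P4HA3 overexpression replicate 2, and was not tested. A count of 0 allows up to 3 counts, which is 0.118 to 0.141 CPM in these libraries, counting error only. MID1IP1, a close relative of THRSP and itself a promoter of carboxylase polymerization, was read at 67.7, 67.7 and 68.2 CPM in control and at 49.7, 43.9 and 51.6 CPM with overexpression. It fell by 0.49 on the log2 scale (SE 0.0696, adjusted p = 0.00242), and with the GC and length correction by 0.37 (adjusted p = 0.00122).

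Levels between genes were compared per kilobase of merged exons. In control cells the order from the highest was ACLY at 84.7, SLC25A1 at 76.3, FASN at 57.2, ACSS2 at 17.6, ME1 at 15.6, ACACA at 11.5, ACSL3 at 3.47, ACACB at 0.941, MLXIPL at 0.302 and THRSP at 0, each a mean CPM per kilobase over 3 libraries. No neighbours in this order overlapped in their 3 libraries, but ACSS2 (16.7 to 18.5) and ME1 (15 to 16.4) came close. With overexpression the means were 74.2 for ACLY, 52.7 for SLC25A1, 35.9 for FASN, 17.8 for ME1, 12.5 for ACSS2, 9.76 for ACACA, 3.01 for ACSL3, 0.899 for ACACB and 0.213 for MLXIPL. ME1 and ACSS2 thus changed places, at 17.1 to 18.7 and 11.6 to 13.5 CPM per kilobase. This exchange depends on the length used. Per kilobase of the canonical transcript ACSS2 stayed above ME1, at means of 31.9 and 15.6 in control and 22.8 and 17.8 with overexpression. On that scale ACLY (99.5 to 105) and SLC25A1 (94 to 102) also overlapped in control, as did ME1 and ACACA, leaving 7 of 9 neighbouring pairs apart.

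The 2 pairs of enzymes that make the same product were then compared within each library. The ratio of ACSS2 to ACLY transcript reads per kilobase was 0.201, 0.217 and 0.204 in control and 0.177, 0.16 and 0.169 with overexpression. The ratio was lower in 3 of 3 overexpression libraries, with a log2 difference of -0.295 (log2 means of -2.27 ± 0.0606 and -2.57 ± 0.0714, SD, n = 3, exact two-sided permutation p = 0.1). The ratio of ACACB to ACACA was 0.0871, 0.0795 and 0.0789 in control and 0.0952, 0.0906 and 0.0906 with overexpression, higher in 3 of 3 libraries by 0.17 on the log2 scale (SD 0.0802 and 0.042, n = 3, exact two-sided permutation p = 0.1). In both pairs the groups did not overlap, and 0.1 is the smallest p that 3 libraries against 3 allow, also when adjusted over the 2 ratios. After the correction the log2 differences were -0.245 and 0.276.

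**Figure D4:**
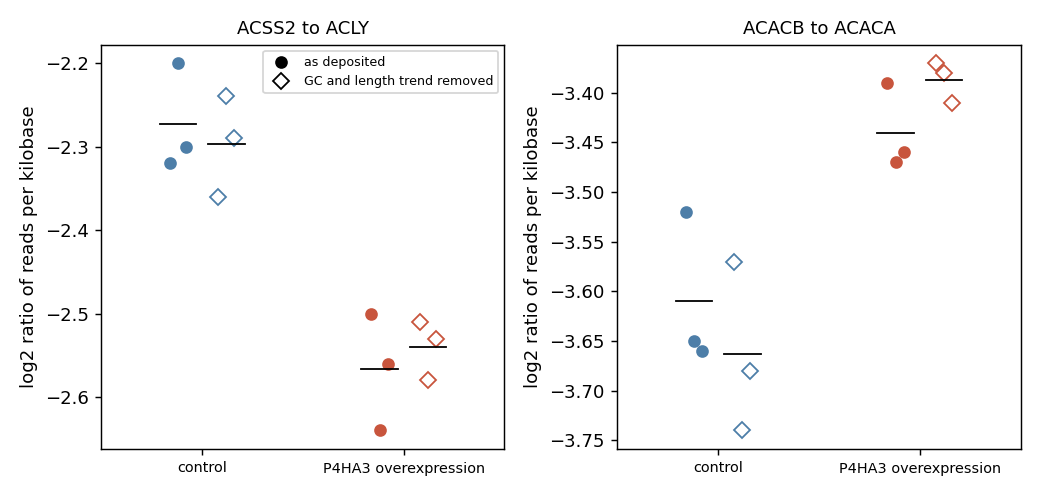
Log2 ratio of reads per kilobase within each library for ACSS2 to ACLY and for ACACB to ACACA (y axes, separate scales), by group, from the deposited counts (filled circles) and after removal of the GC and length trend (open diamonds), with a black line at each mean of 3 libraries. The ACSS2 to ACLY ratio lies between -2.32 and -2.20 in control and between -2.64 and -2.50 with overexpression, and the ACACB to ACACA ratio lies higher with overexpression in both forms.

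The genes around the pathway were read from 8 lists of 117 genes, of which 101 could be tested. Of these, 10 were higher and 22 lower, at a median log2 fold change of -0.11, and with the GC and length correction 8 were higher and 19 lower, at a median of -0.0426. For comparison with this and with each list below, 9.36% of all genes tested were called higher and 11.4% lower. With the correction these were 1603 and 1202 of 15107 genes. The counts of the pathway genes moved with single libraries, to 0 higher and 7 lower without either control replicate 1 or 2, 1 and 11 without overexpression replicate 3, 6 higher without overexpression replicate 2, and 17 higher and 34 lower without overexpression replicate 1. SREBF1, SREBF2, PC, IDH2, MID1IP1, SLC27A1 and ACSF2 were called in 6 of 6 fits without 1 library, and the other called genes named from these lists lost their call at least without control replicate 1 and without control replicate 2. Only chosen uncalled genes were followed by name through these fits, so the genes given next are not all that crossed. Among them, TXNIP, PRKAA1, NDUFAB1, ACOT7 and UBR4 passed the threshold without overexpression replicate 1, and ACSL4 without overexpression replicate 2. The lowest log2 fold change was in the transcription factors of lipogenesis, where 6 of 15 tested genes were lower and 1 was higher. SREBF1, which encodes the SREBP-1 factors that drive FASN and ACACA transcription in many cells, was read at 327, 355 and 309 CPM in control and at 178, 148 and 174 CPM with overexpression. It fell by 0.99 on the log2 scale (SE 0.0803, adjusted p = 0.000242) without overlap, by 0.77 with the correction, and was called in 17 of 17 alternative fits. SREBF2, which encodes the factor best known for cholesterol synthesis, was read at 279, 289 and 273 CPM and at 191, 178 and 200 CPM, a fall by 0.56 (SE 0.0589, adjusted p = 0.000664) that was also called in 17 of 17 fits. PPARG fell by 0.37 (adjusted p = 0.0112), and the LXR genes NR1H3 and NR1H2 fell by 0.35 and 0.30 (adjusted p = 0.0396 and 0.0266). Neither LXR gene was called after the correction (adjusted p = 0.146 and 0.281). THRB, the thyroid hormone receptor beta gene, rose by 0.43 (adjusted p = 0.0306), and by 0.26 with the correction (adjusted p = 0.0281). MLX, the partner gene of ChREBP and MondoA, and MLXIP, which encodes MondoA, were not called, with log2 fold changes of -0.05 and -0.09. TXNIP, a glucose-responsive target of these factors, was read at 113, 112 and 115 CPM in control and at 106, 101 and 95.8 CPM with overexpression, a difference of -0.17 that missed the threshold (adjusted p = 0.0543) and passed it with the correction (-0.26, adjusted p = 0.0053).

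Of 25 tested genes that supply citrate and mitochondrial acetyl-CoA, 3 were higher and 2 lower, at a median of -0.00177, beside 20.8% of all genes called in either direction. With the correction the balance of calls turned, to 1 higher and 4 lower, at a median of -0.00341. PC, pyruvate carboxylase, which replenishes oxaloacetate for citrate, was read at 276, 275 and 245 CPM in control and at 181, 148 and 178 CPM with overexpression. It fell by 0.65 (SE 0.0819, adjusted p = 0.00135), and by 0.46 with the correction (adjusted p = 0.000542). The pyruvate dehydrogenase genes PDHA1, DLAT and DLD rose by 0.17, 0.19 and 0.39 (adjusted p = 0.0401, 0.0467 and 0.0257), and of them DLD alone was called with the correction (0.18, adjusted p = 0.0464). The calls of PDHA1 and DLAT held in 1 of 6 fits without 1 library. GOT2, the highest expressed gene of this list, was read at 459.9 ± 9.03 and 459.4 ± 21.4 CPM (SD, n = 3).

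Of 12 genes of NADPH supply, cytosolic and mitochondrial, 3 were lower and 1 higher. The NADP-dependent isocitrate dehydrogenases fell, IDH1 by 0.31 (212 ± 6.33 to 172 ± 16.6 CPM, SD, n = 3, adjusted p = 0.0174) and IDH2 by 0.49 (94.9 ± 5.18 to 67.3 ± 6.34 CPM, adjusted p = 0.00317), and both were called with the correction. ME2, the mitochondrial malic enzyme, rose by 0.20 (adjusted p = 0.0471) and, like ME1, showed no rise with the correction (-0.0426, adjusted p = 0.725). MTHFD1 was the highest expressed gene of the list, at 352 ± 3.29 and 349 ± 6.89 CPM.

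Among 11 genes that control the carboxylases or use malonyl-CoA, 2 were higher and 1, MID1IP1, was lower. CPT1A, the carnitine palmitoyltransferase that malonyl-CoA inhibits, was read at 41.2, 41.9 and 40.2 CPM in control and at 48.2, 50.8 and 49.3 CPM with overexpression. It rose by 0.27 (SE 0.0605, adjusted p = 0.0155), and by 0.28 with the correction (adjusted p = 0.00221), though its call held in 3 of 6 fits without 1 library. PRKAG2, a regulatory subunit of AMP-activated protein kinase, rose by 0.30 (adjusted p = 0.03), and PRKAA1, the catalytic subunit and highest expressed gene of the list, was not called (124 ± 8.59 and 144 ± 17.7 CPM, adjusted p = 0.1). The separate mitochondrial fatty acid synthesis pathway had 0 genes called of 10 tested, with NDUFAB1, the mitochondrial acyl carrier protein, at 105 ± 3.65 and 95.8 ± 12.1 CPM.

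Acyl-CoA synthetases and acyl-CoA binding proteins held 6 lower and 2 higher genes of 11 tested. DBI, the acyl-CoA binding protein, was read at 144, 141 and 144 CPM in control and at 117, 88.6 and 116 CPM with overexpression, and fell by 0.42 (SE 0.0935, adjusted p = 0.015). SLC27A1, a fatty acid transport protein with synthetase activity, fell by 0.59 (11.8 ± 0.313 to 7.79 ± 0.645 CPM, adjusted p = 0.00427; -0.37 with the correction) and ACSF2 fell by 0.47 (adjusted p = 0.00452). ACSL5 fell by 0.19 (adjusted p = 0.0493), a call that 0 of 6 fits without 1 library kept. The rises were those of the acyl-CoA binding genes ACBD3, by 0.34 (adjusted p = 0.0167), and ACBD5, by 0.37 (adjusted p = 0.0165), and both were called with the correction, at 0.20 and 0.19 (adjusted p = 0.015 and 0.0264). ACSL4, which activates arachidonic acid and is known for its part in ferroptosis, was read at 100, 100 and 112 CPM in control and at 82.1, 108 and 90.9 CPM with overexpression. The groups overlap and it was not called (-0.16, SE 0.0932, adjusted p = 0.233), while with the correction it was -0.41 (adjusted p = 6.31e-05). ACSL3 and ACSL4 thus both had an uncalled difference in the deposited counts and a called one after the correction. Both transcripts are GC-poor, at 37.4% and 36.4%. The median log2 fold change of all genes at 35 to 40% GC was 0.24, a trend that the correction takes out of any such gene. Of 9 thioesterases 1 was called, ACOT2, which fell by 0.35 (adjusted p = 0.0142), and by 0.17 with the correction (adjusted p = 0.0476). ACOT7, the highest expressed of them, was not called (-0.12, adjusted p = 0.28) and had the opposite sign with the correction (0.14, adjusted p = 0.0378).

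For the proteins known to act on ACLY protein, 1 of 8 genes was higher and 3 lower. UBR4, the ubiquitin ligase the study pairs with ACLY, was read at 326, 357 and 347 CPM in control and at 366, 448 and 388 CPM with overexpression. The overexpression libraries all lay above control, led by replicate 2, and the log2 fold change of 0.22 (SE 0.0773) was not called (adjusted p = 0.063), while with the correction it was 0.18 (adjusted p = 0.00878). It was also called by DESeq2 (adjusted p = 0.0333), with no filter on low counts (adjusted p = 0.00527) and without overexpression replicate 1 (adjusted p = 0.00813). CUL3, a ligase scaffold for ACLY, rose by 0.30 (adjusted p = 0.0222) and its adaptor KLHL25 fell by 0.28 (adjusted p = 0.0273). The kinase genes AKT1 and AKT2 fell by 0.19 and 0.23 (adjusted p = 0.044 and 0.0384). With the correction CUL3, KLHL25, AKT1 and AKT2 were not called (adjusted p = 0.554, 0.434, 0.702 and 0.242). Transcript counts say nothing of the amount or activity of these proteins, or of ACLY protein.

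**Figure D5:**
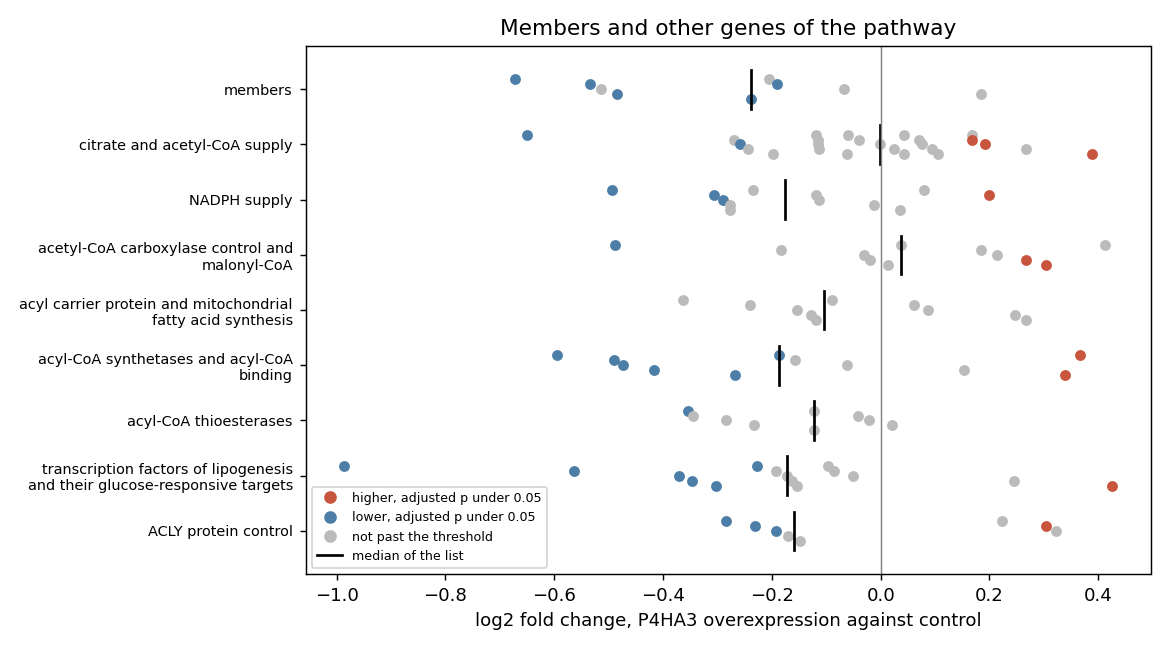
Log2 fold change of P4HA3 overexpression against control (x axis) for each tested gene of the members and of the 8 lists (rows, with points spread vertically for legibility), coloured by call at an adjusted p under 0.05, with a black line at each list's median. The members have 5 lower and 0 higher genes at a median of -0.24, SREBF1 at -0.99 is the lowest point, and the citrate and acetyl-CoA supply list has its median at -0.00177.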

How the data were processed

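The authors purified poly-A RNA, made strand-specific libraries by the dUTP method and sequenced paired ends on a DNBSEQ-T7. Their methods name STAR, GRCh38 with Ensembl 104 and HTSeq, whereas the submitters' processing notes name HISAT2, and versions and the strand setting are not given in the sources used here. The deposited values are raw counts for 60664 genes in 6 libraries, with no row for reads outside genes. Totals were 21773488 to 24939948 counts, so a gene at 1 CPM rests on a little over 20 counts.

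Counts were analysed with edgeR 4.0.16 in R 4.3.3 (filterByExpr with a minimum count of 10, TMM, glmQLFit and glmQLFTest, two-sided, Benjamini-Hochberg over all 15130 genes tested). The common biological coefficient of variation was 7.66%. The SE is the log2 fold change over the root of F. GENCODE 44 gave positions, lengths and GC content for 60463 identifiers. The correction fitted each library's deviation on GC content and log2 length with mgcv 1.9.3 and entered it as an offset. Libraries with the same replicate number had correlations of deviations of 0.25, -0.0486 and 0.0297. These deviations also followed GC content, so the correlations cannot settle whether replicates were made in pairs, and the main fit had no block. Scripts were tested on simulated data. There 86.7% of 2-fold and 49.5% of 1.41-fold changes were called, and 8.22% of the calls were false. Many changes of the smaller size were thus missed there. The simulated data held no GC trend and a smaller share of changed genes than was called here. These rates may therefore differ from those of the real libraries. The genes and lists were chosen with earlier results of these data known. Named beside the 10 genes and P4HA3 were most but not all called genes of the lists, and the highest expressed and most changed gene of each list. UBR4, ACSL4, SREBF1, MID1IP1, TXNIP and SLC7A11 were also named, while MLX, MLXIP and single cell type markers were added after their values were seen. Also called lower, but not described above, were SLC25A11, SLC27A3, SLC27A4 and RXRB, at log2 fold changes of -0.26, -0.49, -0.27 and -0.23. None of them was called with the correction. Alternatives were RLE, upper-quartile and library-size scaling, DESeq2 1.42.0, limma-voom 3.58.1, 2 other count filters, P4HA3 left out of library sizes, a replicate block, the correction, and each library left out. The values of 1 called gene of the NADPH list are not reported here.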

Additional observations from a re-analysis of the deposited data

How the results depend on the processing

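Over 17 alternatives, the 9 tested members gave 153 values, of which 153 kept their direction and 143 also their side of the threshold. FASN, SLC25A1 and ACSS2 stayed called in each of the 17. Leaving out 1 library moved the members lower between 3 and 5, with 3 left when control replicate 1 or 2 or overexpression replicate 3 was dropped, and the members higher between 0 and 1. It moved the other pathway genes higher between 0 and 17 and lower between 7 and 34, and all genes higher between 163 and 2814 and lower between 371 and 2716. For all genes the lowest counts came without control replicate 2 and the highest without P4HA3 overexpression replicate 1. The ACSS2 to ACLY difference stayed between -0.33 and -0.258 and the ACACB to ACACA difference between 0.146 and 0.218. The latter was 0.276 with the GC and length correction, against 0.172 without it. This shift was larger than the SD of the log2 ratio in either group (0.0802 and 0.042). It was smaller than the range of the control libraries, from -3.66 to -3.52. All genes higher numbered 2384 with no filter, 2138 with the replicate block (2175 lower) and 2139 with the block and the correction, against 1416. The block changed no member's call. It ended the calls of PDHA1, DLAT, ME2 and ACSL5 and added PRKAA1 and UBR4 (adjusted p = 0.0666, 0.0506, 0.0635, 0.079, 0.0347 and 0.0188). For members it left adjusted p at 0.035 for ACLY, 0.0124 for ACACA and 0.079 for ME1, and not every library correlated best with its own number. DESeq2 called 1498 genes higher and 1519 lower.

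Some small values changed sign, and except for the correction itself the cause was not tested. With the correction, and with the block and the correction, ME2 was at -0.0426 and -0.0419, AKT1 at 0.0226 and 0.0226, GOT2 at 0.0369 and 0.0365, PRKAA1 at -0.0332 and -0.0334, and ACOT7 at 0.136 and 0.136. GOT2 ran from -0.0386 to 0.0275 with 1 library left out, and was at 0.0139 by library size only, 0.000196 by DESeq2, 0.0087 with no filter, 0.012 without control replicate 1, and 0.0059 and 0.0275 without P4HA3 overexpression replicates 2 and 3, and MTHFD1 at 0.00416 by library size only. The correction combined with leaving out 1 library was chosen after seeing the data. Without control replicate 1 it put ME1 at -0.00244 and ACACB at 0.025. ME1 was at -0.0324 when overexpression replicate 1 was left out, and ACACB at 0.00273 when overexpression replicate 2 was. Depth limits MLXIPL and THRSP, and 3 libraries a group limit exact tests to 0.1.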
